A study of Mus musculus with 6 samples.

Results

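Basophil and mast cell genes were examined in mouse splenic CD11c+ dendritic cells treated with the cytokine IL-33 (3 libraries) or with PBS, a buffered saline (3 libraries). The set was chosen by name, as a list of 10 gene symbols: Mcpt8, Prss34, Cpa3, Tpsb2, Hdc, Fcer1a, Ms4a2, Cd200r3, Kit and Gata2. All 10 were found among the 24346 genes of each library. Expression is given as FPKM, a fragment count divided by transcript length and by a measure of library size, so that levels can be set side by side between genes. The cells were enriched from spleen by magnetic sorting for CD11c on an autoMACS instrument. The labels give no genotype, strain, age, dose, duration or route for either group, and do not say whether a group's libraries stem from different animals. The p-values therefore cover the variation among these 6 libraries, which may be technical only.

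Basophils and mast cells are granulocytes that carry the high-affinity receptor for IgE on their surface and release histamine, proteases and lipid mediators when bound IgE is crosslinked by antigen. Basophils complete their development in the bone marrow and circulate as a rare population that also enters the spleen, whereas mast cells mature in tissues under the control of the KIT receptor. GATA2 is needed for the formation of both. Both also carry ST2, the receptor for IL-33, and basophils are a source of IL-4 in type 2 immunity.

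Of the 10 genes, 7 rose with IL-33, 1 fell and 2 did not pass the test. The genes that rose were the basophil protease genes Mcpt8 and Prss34, with the largest changes, and Cd200r3, Cpa3, Fcer1a, Gata2 and Ms4a2. Mcpt8 led on the log2(FPKM + 1) scale and Prss34 by ratio of mean FPKM (34.6 against 26.8). Kit fell, and Hdc and Tpsb2 were those that did not pass. The test was limma on log2(FPKM + 1) over all 17265 genes above 0 FPKM in at least 1 library, two-sided, with Benjamini-Hochberg adjustment and a threshold of 0.05. In that fit 18.5% of all tested genes were called higher and 17.0% lower. In such bulk samples, more cells of a type and more RNA of a gene per cell cannot be told apart. Every IL-33 library lay above every PBS library for 7 of the 10 genes and for 24.6% of all tested genes, and below for 1 of the 10 and for 24.7%. The median log2 change of the 10 was 0.67, against -0.01 over all tested genes. The added 1 in the logarithm shrinks the change of low genes, and the median of the 10 was 1.86 with a pseudocount of 0.1. In a test against a minimum change of 2-fold none of the 10 passed, while 56 genes of the whole table were higher and 3 lower, with Mcpt8 the nearest of the set (limma adjusted p = 0.0657).

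**Figure D1:**
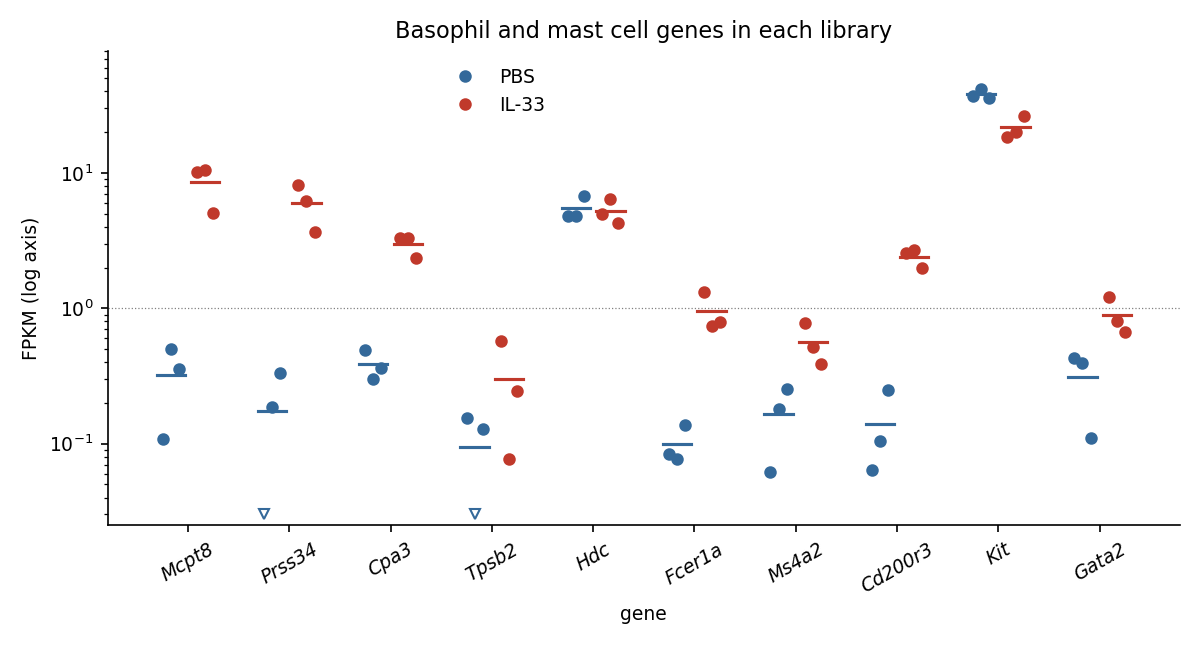
FPKM of the 10 genes in each library on a log axis, with PBS libraries in blue, IL-33 libraries in red and a short line at each group mean. Open triangles at the lower edge mark values listed at 0, and the dotted line marks 1 FPKM. Mcpt8, Prss34, Cpa3 and Cd200r3 lie above 1 FPKM in every IL-33 library and below it in every PBS library. Fcer1a and Gata2 exceed 1 FPKM in IL-33 replicate 1 only, and Kit is the most abundant of the set in both groups.

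The libraries were similar in relative depth, as read from the values. The scaling between libraries was not stated, so this is the divisor used for each library, which need not equal its fragment count. Low values of a gene were whole multiples of a common step, and comparing these steps put the depth at 0.946 to 1.07 times that of PBS replicate 1 in the IL-33 libraries and at up to 1.22 times in the PBS libraries. The FPKM sums were higher with IL-33 (778391 to 841884) than with PBS (614522 to 641412). Correlations of log2 values across genes were 0.978 to 0.987 within a group and 0.961 to 0.972 between groups, and no pair of libraries held an identical value above 0. All 10 listed dendritic cell markers were above 0 in every library. Of these 1 rose and 5 fell, beside 18.5% and 17.0% of all tested genes. With every library set to the same FPKM total, 7.70% and 35.8% of all tested genes did so. The marker that rose was Itgax, the gene of CD11c (log2 change 0.23, SE 0.06, limma adjusted p = 0.0367). This change was not scaled to the FPKM sums, which were higher with IL-33.

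The genes that rose together can be viewed beside their promoters. Windows of 300 bases, from 250 before to 50 after the annotated start, were taken from RefSeq (GRCm38.p6) for the 9 members found there, and were searched on both strands for letters that GATA factors bind (AGATAA, the form AGATAG, the form TGATAA and the form TGATAG). Prss34 is shown for its single match close to the start, Cd200r3 and Ms4a2 for their 3 matches each, and Mcpt8 for having none although it rose. Sequences run 5′ to 3′ on the gene's strand, and capitals mark the matches, which overlap no other match of the same search.
Prss34, chr17:25298144-25298443, plus strand: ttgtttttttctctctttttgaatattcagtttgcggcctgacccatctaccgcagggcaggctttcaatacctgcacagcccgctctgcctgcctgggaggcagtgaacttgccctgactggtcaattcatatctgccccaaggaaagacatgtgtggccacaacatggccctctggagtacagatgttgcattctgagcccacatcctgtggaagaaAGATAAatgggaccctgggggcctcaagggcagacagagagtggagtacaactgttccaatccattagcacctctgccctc
Cd200r3, chr16:44943428-44943727, plus strand: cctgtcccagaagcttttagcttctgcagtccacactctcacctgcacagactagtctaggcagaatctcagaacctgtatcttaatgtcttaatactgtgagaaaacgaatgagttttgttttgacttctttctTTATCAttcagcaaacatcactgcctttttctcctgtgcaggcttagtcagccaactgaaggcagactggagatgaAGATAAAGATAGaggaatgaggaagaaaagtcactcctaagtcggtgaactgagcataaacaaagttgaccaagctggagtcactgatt
Ms4a2, chr19:11623670-11623969, minus strand: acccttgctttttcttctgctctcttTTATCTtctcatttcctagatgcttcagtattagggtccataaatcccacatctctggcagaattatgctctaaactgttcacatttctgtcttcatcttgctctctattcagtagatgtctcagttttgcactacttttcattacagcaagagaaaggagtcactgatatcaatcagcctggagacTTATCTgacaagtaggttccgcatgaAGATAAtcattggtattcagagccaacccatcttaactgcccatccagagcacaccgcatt
Mcpt8, chr14:56085148-56085447, minus strand: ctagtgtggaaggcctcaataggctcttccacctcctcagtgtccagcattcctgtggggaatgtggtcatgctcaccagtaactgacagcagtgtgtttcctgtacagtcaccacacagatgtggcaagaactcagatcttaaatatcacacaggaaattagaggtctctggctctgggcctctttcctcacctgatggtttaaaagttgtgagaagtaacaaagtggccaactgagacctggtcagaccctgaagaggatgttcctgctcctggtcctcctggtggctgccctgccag

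In these windows the match of Prss34 began 31 bases before the start, and that of Cpa3 46 bases before it. Those of Cd200r3 began 115, 39 and 33 bases before the start, those of Ms4a2 224, 37 and 11 bases before it, that of Fcer1a 92 and that of Hdc 221. Thus 6 of 9 genes had a match. These 9 genes have 11 windows, with further starts for Gata2 and Kit. Counted by window, 6 of the 11 had a match, against 29.8% of the 32851 windows searched. Mcpt8, Gata2 and Kit had none in any of their windows. The letters TTCNNNGAA, which STAT5 binds, were in none of the 9 and in 8.30% of all windows. CATGTG and the form CACGTG, bound by MITF, were in Prss34 and Fcer1a and in 20.4% of all windows. TGTGGT, bound by RUNX factors, was in Cpa3, Fcer1a and Mcpt8 and in 16.8% of all windows. Such matches describe the letters only. Mcpt8 and Gata2, which rose, lacked the GATA letters in their windows, and Hdc, which did not pass, had them.

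The basophil granule proteases were close to the detection limit with PBS and were clearly present in every IL-33 library. Mcpt8 encodes a serine protease that in the mouse is a product of basophils in spite of its name, and lies on chromosome 14 (56082166 to 56085273, minus strand, mm10). PBS replicates 1, 2 and 3 held 0.108, 0.497 and 0.356 FPKM, and IL-33 replicates 1, 2 and 3 held 10.2, 10.5 and 5.03 FPKM. The groups were far apart, and IL-33 replicate 3 was the lowest of its group. The mean went from 0.32 ± 0.20 to 8.57 ± 3.07 FPKM (SD, n = 3 per group), 26.8-fold, with a log2 change of 2.81 (SE 0.28, limma adjusted p = 0.00181). Prss34, a second basophil protease gene, on chromosome 17 (25298394 to 25300165, plus strand), was listed at 0 in PBS replicate 1 and stood at 0.186 and 0.334 FPKM in PBS replicates 2 and 3. With IL-33 it reached 8.13, 6.23 and 3.65 FPKM, in the same order of replicates. As with Mcpt8, the lowest IL-33 library was replicate 3. The log2 change of Prss34 was 2.53 (SE 0.26, limma adjusted p = 0.002).

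Cpa3 and Tpsb2 are granule enzyme genes shared with, or typical of, mast cells. Cpa3 encodes carboxypeptidase A3, a metalloprotease of mast cell and basophil granules, and lies on chromosome 3 (20215620 to 20242181, minus strand). It stood at 0.493, 0.302 and 0.360 FPKM with PBS and at 3.32, 3.31 and 2.37 FPKM with IL-33. The groups did not overlap, and the mean rose 7.80-fold to 3.00 ± 0.54 FPKM (log2 change 1.52, SE 0.12, limma adjusted p = 0.00115). Tpsb2, which encodes a tryptase stored in mast cells of connective tissue, on chromosome 17 (25366305 to 25369098, plus strand), was at 0.155, 0 and 0.127 FPKM with PBS and at 0.578, 0.0767 and 0.246 FPKM with IL-33. These ranges overlapped, and IL-33 replicate 2 was below PBS replicates 1 and 3. The log2 change of 0.23 (SE 0.14) did not pass (limma adjusted p = 0.255). Tpsb2 and its neighbour Tpsab1, and likewise Mcpt8 and the other genes of the Mcpt cluster, are related in sequence, so reads could have been divided between such genes.

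The steps between low values give a rough measure of how much sequence stands behind these levels. After scaling by relative depth, 6 of the 10 genes had values that were whole multiples of 1 step in all 6 libraries, within 0.02 of a step. No fragment counts were used, so the number of fragments in a step is not known. Mcpt8 had 1, 5 and 4 steps in PBS replicates 1, 2 and 3 and 101, 98 and 44 in IL-33 replicates 1, 2 and 3. Prss34 had 0, 1 and 2 steps with PBS and 43, 31 and 17 with IL-33. For Cpa3 the steps were 9, 6 and 8 with PBS and 65, 61 and 41 with IL-33. Fcer1a rested on 1, 1 and 2 steps with PBS and on 17, 9 and 9 with IL-33. Gata2 had 19, 19 and 6 steps with PBS and 58, 36 and 28 with IL-33, and Tpsb2 had 2, 0 and 2 and 8, 1 and 3. Pooled over libraries, the IL-33 to PBS ratio per unit of depth was 26.5 for Mcpt8 (exact Clopper-Pearson 95% interval 14.2 to 56.0), 33.1 for Prss34 (11.0 to 164) and 7.93 for Cpa3 (5.11 to 12.8). It was 9.55 for Fcer1a (3.42 to 37.0), 3.03 for Gata2 (2.13 to 4.38) and 3.27 for Tpsb2 (0.993 to 13.9). These intervals take each step as 1 fragment, which was not tested, and cover counting error only. The PBS levels of Prss34, Fcer1a and Tpsb2 thus rest on 3, 4 and 4 steps in all.

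**Figure D2:**
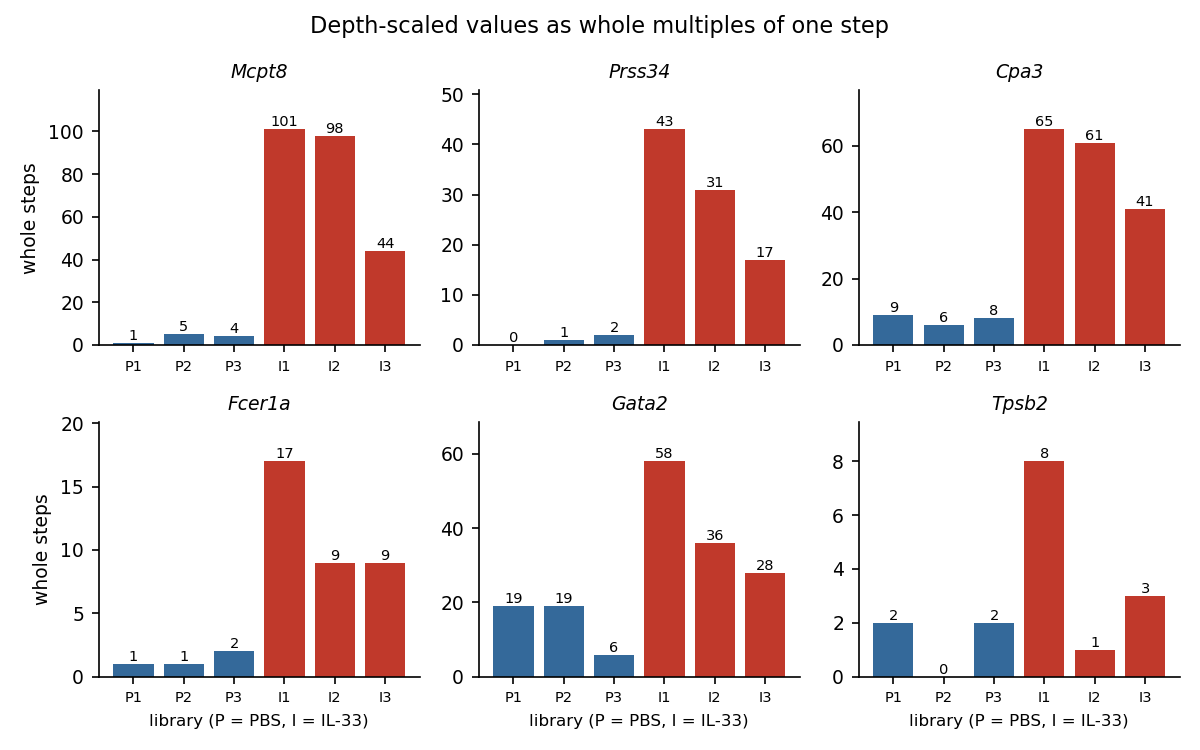
Depth-scaled values of 6 genes expressed as whole multiples of the gene's step, in PBS replicates 1 to 3 (P, blue) and IL-33 replicates 1 to 3 (I, red), with the count above each bar and a separate axis starting at 0 for each gene. Mcpt8 has 1 to 5 steps with PBS and 44 to 101 with IL-33, while Tpsb2 does not exceed 8 steps in any library.

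Hdc, the gene of histidine decarboxylase, which makes histamine and is also transcribed in other myeloid cells, lies on chromosome 2 (126593667 to 126619299, minus strand). It did not pass the test. PBS replicates 1, 2 and 3 held 4.79, 4.83 and 6.80 FPKM, and IL-33 replicates 1, 2 and 3 held 4.99, 6.41 and 4.28 FPKM. The groups overlapped, and the highest single value was in PBS replicate 3. The log2 change was -0.06 (SE 0.18, limma adjusted p = 0.833), and it was 0.04 with quantile normalization and 0.10 with cyclic loess. Hdc stood with PBS at 5.47 ± 1.15 FPKM, far above Mcpt8 (0.32 FPKM) and Prss34 (0.17 FPKM). Of the 8 basophil markers, which are the members without Kit and Tpsb2, it alone had a mean above 1 FPKM without IL-33.

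The alpha and beta chain genes of the high-affinity IgE receptor both rose but stayed low. Fcer1a encodes the alpha chain, which binds IgE, and lies on chromosome 1 (173221284 to 173227214, minus strand). It stood at 0.0833, 0.0765 and 0.137 FPKM with PBS and at 1.32, 0.743 and 0.793 FPKM with IL-33. The groups were apart, with IL-33 replicate 1 the highest, and the log2 change was 0.82 (SE 0.11, limma adjusted p = 0.0042). Ms4a2 encodes the beta chain, which amplifies the signal, and lies on chromosome 19 (11615523 to 11623719, minus strand). It stood at 0.0614, 0.179 and 0.253 FPKM with PBS and at 0.775, 0.516 and 0.389 FPKM with IL-33. The groups did not overlap, but no library reached 1 FPKM, and the log2 change was 0.42 (SE 0.11, limma adjusted p = 0.0252). The call of Ms4a2 was lost without IL-33 replicate 2 (0.43, limma adjusted p = 0.058), PBS replicate 1 (0.35, limma adjusted p = 0.0729) or PBS replicate 2 (0.43, limma adjusted p = 0.0634). It was also lost with the replicate number as a block (limma adjusted p = 0.077). Over the alternatives its limma adjusted p ran from 0.0183 to 1, the latter in the test against a 2-fold change.

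The ratio of the alpha to the beta chain was 1.36, 0.426 and 0.542 in PBS replicates 1, 2 and 3 and 1.70, 1.44 and 2.04 in IL-33 replicates 1, 2 and 3. Every IL-33 ratio was above every PBS ratio, although the PBS values rest on 1 or 2 steps of Fcer1a. The log2 ratio differed by 1.33, with an exact two-sided permutation p of 0.1, below which 3 against 3 cannot go. The ratio of Mcpt8 to Prss34 was 1.25, 1.69 and 1.38 with IL-33 and 2.67 and 1.07 in PBS replicates 2 and 3, and could not be formed where Prss34 was listed at 0. It differed by -0.24 on the log2 scale, less than the spread between PBS libraries (exact permutation p = 0.8).

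The common gamma chain gene and the low-affinity IgE receptor gene went different ways. Fcer1g, whose product serves several Fc receptors of myeloid cells, stood at 801, 987 and 1025 FPKM with PBS and at 1433, 1269 and 1261 FPKM with IL-33, far above Fcer1a in either group. Its log2 change of 0.50 (SE 0.12, limma adjusted p = 0.0223) was lost with equal totals (0.16) and quantile normalization (0.05), turned to -0.08 with cyclic loess, and was lost without IL-33 replicate 1 (0.44) or 2 (0.53) and with the replicate block. Fcer2a, the low-affinity receptor of B cells, fell from 55.8, 27.2 and 18.4 FPKM to 14.7, 12.2 and 8.40 FPKM (log2 change -1.33, SE 0.41, limma adjusted p = 0.0472). That call was lost with quantile normalization (-1.38), with cyclic loess (-1.34), without a variance trend and without any 1 library except PBS replicate 3, with values from -1.50 without IL-33 replicate 1 to -0.90 without PBS replicate 1.

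Cd200r3 and Kit, the other surface receptors of the set, moved in opposite directions. Cd200r3 encodes an activating receptor of the CD200 receptor family found on basophils and mast cells, and lies on chromosome 16 (44943678 to 44981380, plus strand). It stood at 0.0636, 0.105 and 0.248 FPKM with PBS and at 2.57, 2.68 and 1.99 FPKM with IL-33. The mean rose 17.4-fold, the IL-33 libraries were close to one another, and the log2 change was 1.58 (SE 0.11, limma adjusted p = 0.000907). Kit encodes the receptor for stem cell factor, which mast cells and haematopoietic progenitors carry and mature basophils largely lose, and lies on chromosome 5 (75574916 to 75656722, plus strand). It stood at 37.2, 41.9 and 35.8 FPKM with PBS and at 18.6, 20.1 and 26.5 FPKM with IL-33. All IL-33 libraries were below all PBS libraries, and the mean fell from 38.3 ± 3.19 to 21.7 ± 4.19 FPKM (log2 change -0.80, SE 0.14, limma adjusted p = 0.00731). The change of Kit lay between -0.95 and -0.70 with any 1 library left out, and was -1.13 with equal totals.

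Gata2, the transcription factor gene of the set, on chromosome 6 (88193891 to 88207032, plus strand), rose from low levels. It stood at 0.426, 0.392 and 0.111 FPKM with PBS and at 1.21, 0.80 and 0.665 FPKM with IL-33. The groups were apart, PBS replicate 3 was the lowest library, and the log2 change was 0.53 (SE 0.14, limma adjusted p = 0.03). The call was lost without IL-33 replicate 1 (0.41, limma adjusted p = 0.0695), IL-33 replicate 2 (0.56, limma adjusted p = 0.0627), PBS replicate 2 (0.58, limma adjusted p = 0.0568) or PBS replicate 3 (0.42, limma adjusted p = 0.064). It was also lost with equal totals (0.41, limma adjusted p = 0.0514), and over the alternatives the limma adjusted p of Gata2 ran from 0.0226 to 1. Exact permutation tests of single genes gave 0.1 for the 8 genes called, 0.3 for Tpsb2 and 0.7 for Hdc.

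**Figure D3:**
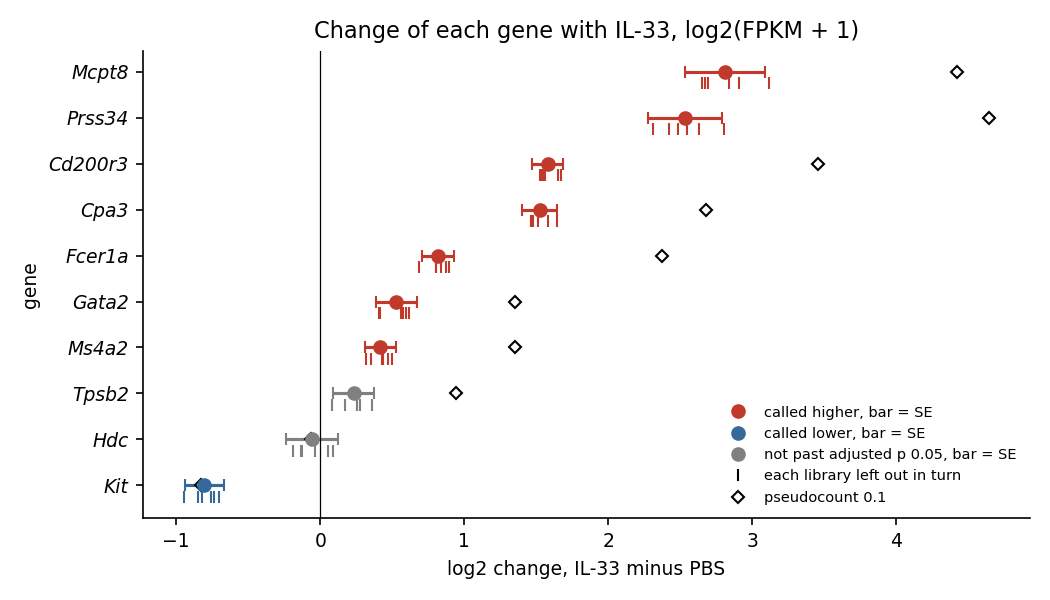
Difference of group means of log2(FPKM + 1) for each gene, IL-33 less PBS, with its SE, ticks for the value with each library left out in turn, and diamonds for a pseudocount of 0.1. Mcpt8 (2.81) and Prss34 (2.53) lie farthest to the right, Kit (-0.80) lies alone on the left, and the diamonds lie farther from 0 for the genes that are low with PBS.

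Other genes of the same pathways were followed in 8 lists of 118 genes beside the members, of which 111 were tested. Of these, 39 rose (35.1%, against 18.5% of all tested genes), 23 fell (20.7%, against 17.0%) and 49 did not pass, with a median log2 change of 0.06. The split depended on scaling: with every library set to the same total, which moved the median of all genes from -0.01 to -0.14, 23 of them were higher (20.7%, against 7.70% of all genes) and 38 lower (34.2%, against 35.8%). Of the members 6 were then higher and 1 lower. The IgE receptor list also holds Fcer1a and Ms4a2 and the histamine list Hdc, while no other list holds a member. With quantile normalization the split of the other genes was 27 and 25, and with cyclic loess 28 and 27, while the members stayed at 7 and 1 in both.

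**Figure D4:**
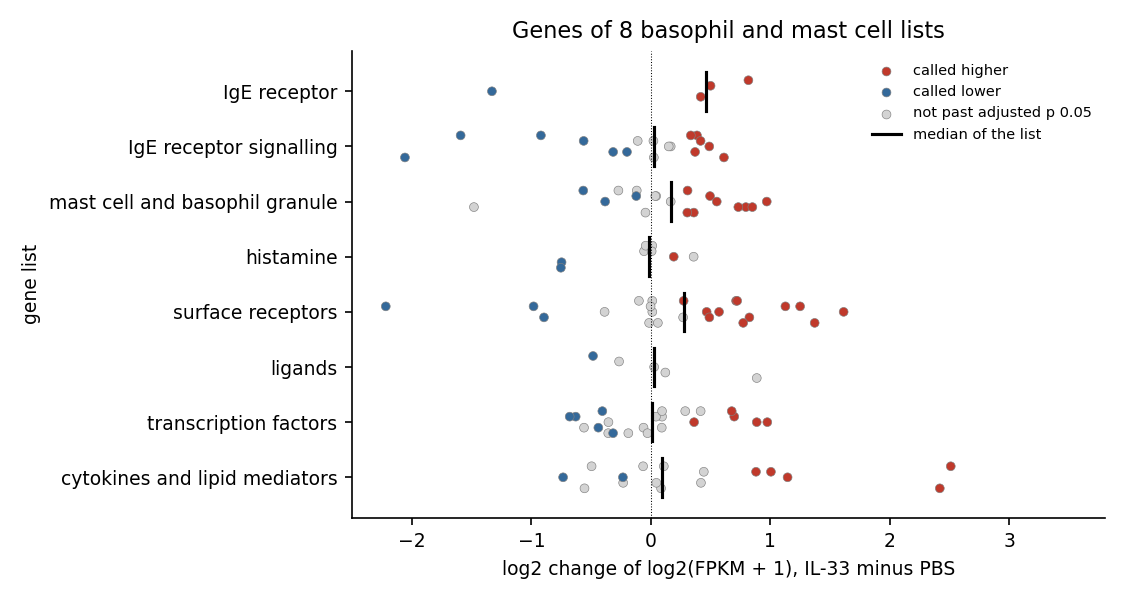
Log2 change (IL-33 minus PBS) of each tested gene in the 8 lists, with the members Fcer1a, Ms4a2 and Hdc in theirs, coloured by call, with the median of each list as a black bar. Each list has points on both sides of 0, and Ltc4s, among the cytokines and lipid mediators, lies farthest to the right at 2.51.

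Among 19 tested granule and secretion genes 9 rose and 3 fell (6 and 4 with equal totals). Of all tested genes 18.5% rose and 17.0% fell (7.70% and 35.8% with equal totals). Mcpt4, a chymase of connective tissue mast cells, was listed at 0 in PBS replicates 1 and 2, stood at 0.0717 FPKM in PBS replicate 3 and reached 0.812, 0.690 and 0.829 FPKM with IL-33 (log2 change 0.80, SE 0.05, limma adjusted p = 0.000746). Ctsg, the cathepsin G gene of mast cells and neutrophils, rose by 0.97 (SE 0.16). The membrane fusion genes Vamp8 and Snap23, which many secretory cells use, rose by 0.85 (SE 0.11) and 0.55 (SE 0.07). Over the 3 scalings Vamp8 stood at 0.43 to 0.51 and Snap23 at 0.22 to 0.36. In the IgE receptor signalling list 6 of 17 rose and 6 fell, but 1 rose and 9 fell with equal totals. Orai1, a calcium channel subunit gene, rose by 0.61 (SE 0.07; 0.29 with equal totals), and the kinase gene Btk by 0.39 (SE 0.06), a call that was lost with equal totals (0.05), quantile normalization (0.19) and cyclic loess (0.18). Plcg1, the gene of a phospholipase C, fell by 0.92 (SE 0.12).

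Of 8 tested histamine genes, Hdc among them, 1 rose, 2 fell and 5 did not pass, beside 18.5%, 17.0% and 64.5% of all tested genes. The receptor genes Hrh1 and Hrh2 fell by 0.75 each (SE 0.13 for both), Hrh2 from 4.91, 4.14 and 4.32 FPKM to 1.82, 2.31 and 2.62 FPKM. The vesicular transporter gene Slc18a2, which loads histamine into granules, stood at 0.550, 0.522 and 0.343 FPKM with PBS and at 0.424, 0.544 and 0.461 FPKM with IL-33, with overlapping groups. Hnmt, which degrades histamine, changed by 0.36 (SE 0.12, limma adjusted p = 0.0666) and passed with quantile normalization (0.42), with cyclic loess (0.45), with the replicate number as a block and without IL-33 replicate 2 (0.46). The organic cation transporter gene Slc22a3 changed by 0.19 (SE 0.06, limma adjusted p = 0.0475), a call lost with equal totals, without a variance trend, with the replicate block and without any 1 library except IL-33 replicate 1. Hrh4 and Aoc1 did not exceed 0.103 FPKM, and Hrh3 was listed at 0 in all libraries.

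Of 23 tested surface receptor genes 12 rose and 3 fell (7 and 5 with equal totals). Of all tested genes 18.5% rose and 17.0% fell (7.70% and 35.8% with equal totals). The IL-33 receptor gene Il1rl1 rose by 1.61 (SE 0.11) and Cd200r1, the inhibitory relative of Cd200r3, by 1.13 (SE 0.12), from a mean of 15.7 FPKM to 35.2 FPKM. The tetraspanin genes Cd63, whose product reaches the surface of basophils on degranulation, and Cd9 rose by 1.37 (SE 0.15) and 1.25 (SE 0.11). The 3 surface receptor genes that fell were Il18r1 (log2 change -2.22, SE 0.42), Itga2 (-0.98, SE 0.13) and Mrgpra6 (-0.89, SE 0.17). Of 5 tested ligand genes 1 fell, Cd200 (log2 change -0.48, SE 0.11; -0.79 with equal totals), a call lost without IL-33 replicate 2 (-0.45). Of 22 transcription factor genes 5 were higher and 5 lower, near the 18.5% and 17.0% of all tested genes (4 and 11 with equal totals). Lmo4 and the granulocyte factor gene Cebpa rose by 0.89 (SE 0.09) and 0.98 (SE 0.12), and Ikzf1 and Irf8 fell by 0.44 (SE 0.05) and 0.41 (SE 0.06). With equal totals Lmo4 stood at 0.55 and Cebpa at 0.64, and over the 3 scalings Ikzf1 stood at -0.78 to -0.68 and Irf8 at -0.78 to -0.74. Of 16 cytokine and lipid mediator genes 5 rose and 2 fell (5 and 5 with equal totals). Ltc4s, the leukotriene C4 synthase gene of basophils, mast cells and eosinophils, went from 1.26, 2.63 and 1.77 FPKM to 26.6, 12.8 and 10.1 FPKM (log2 change 2.51, SE 0.36, limma adjusted p = 0.00467). Il6 and Alox5ap rose by 2.42 (SE 0.33) and 1.01 (SE 0.09), Alox5ap with 0.54 to 0.67 over the 3 scalings, and Ptgds, at most 0.228 FPKM with PBS, was listed at 0 in all IL-33 libraries.

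Of 8 mast cell genes listed beside the members, 7 were tested. Of these 2 rose, none fell and 5 did not pass, as 64.5% of all tested genes did not. The 2 that rose were the chymase gene Mcpt4, described above, and Mcpt1, a chymase gene of mucosal mast cells named after its values were seen. Mcpt1 was listed at 0 in PBS replicates 1 and 2, stood at 0.137 FPKM in PBS replicate 3 and at 0.775, 0.247 and 0.439 FPKM with IL-33 (log2 change 0.50, SE 0.13, limma adjusted p = 0.0299). Its call was lost without IL-33 replicate 3 (0.51), PBS replicate 1 (0.46) or PBS replicate 2 (0.46). The summed level of the 8 listed genes was 5.22 to 6.06 FPKM with PBS and 6.48 to 8.48 FPKM with IL-33, without overlap. Most of it came from Mitf and Cma1, neither of which passed. The FPKM sums of whole libraries were also higher with IL-33 (778391 to 841884, against 614522 to 641412). The marker sum was not scaled to them. With Kit, Tpsb2, Cpa3 and Hdc added, the 12 markers summed to 48.6 to 52.2 FPKM with PBS and 35.9 to 40.7 FPKM with IL-33. Kit, which fell, makes up most of that sum. The chymase gene Cma1 stood at 3.61, 2.31 and 1.61 FPKM with PBS and at 2.56, 2.10 and 1.83 FPKM with IL-33. Its groups overlapped, and its log2 change of -0.12 (SE 0.22) turned to 0.03 with cyclic loess. Mitf, a transcription factor gene of mast cells and other myeloid cells, changed by 0.29 (SE 0.12) and passed with cyclic loess only (0.47). Of the remaining listed mast cell genes Mrgprb1 was listed at 0 in all 6 libraries, Tpsab1 in all except IL-33 replicate 3 (0.0814 FPKM), Mcpt2 overlapped between the groups (at most 0.514 FPKM, in PBS replicate 3) and Mrgprb2 was at 0 in all except PBS replicate 3 (0.03 FPKM).

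Genes of other granulocytes and of plasma cells moved with the basophil genes. The summed level of the 8 basophil markers was 6.02 to 8.60 FPKM with PBS and 19.2 to 32.5 FPKM with IL-33, and without Hdc, a choice made after its values were seen, it was 1.24 to 1.80 and 14.9 to 27.5 FPKM. The sum of 10 eosinophil markers, each above 0 in at least 1 library, was 220 to 312 FPKM with PBS and 882 to 1263 FPKM with IL-33, and 8 of the 10 rose. That of 11 neutrophil markers, of which 10 rose, was 479 to 791 and 1219 to 2458 FPKM. The plasma cell list, with 6 of its 7 genes higher, had a sum of 131 to 178 FPKM with PBS and of 408 to 438 FPKM with IL-33. Of all tested genes 18.5% were called higher. IL-33 replicate 3 had the lowest basophil, eosinophil and neutrophil sums of the IL-33 group, as it had the lowest Mcpt8, Prss34, Cpa3, Ms4a2, Cd200r3 and Gata2. Its plasma cell sum (438 FPKM) was close to that of IL-33 replicate 2 (436 FPKM), with IL-33 replicate 1 at 408 FPKM. Prg2, an eosinophil granule gene that basophils and mast cells also transcribe, stood at 3.03, 3.87 and 3.29 FPKM with PBS and at 178, 214 and 128 FPKM with IL-33, again lowest in replicate 3. Ear2, an eosinophil ribonuclease gene whose reads may be shared with related Ear genes, rose by 1.83 (SE 0.18), while the eotaxin receptor gene Ccr3 stood at 34.5 to 60.0 FPKM with PBS and 38.7 to 66.1 FPKM with IL-33. The part of these cells in the rises of shared genes such as Cpa3 was not tested.

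For Kit and Gata2, markers of progenitors and of the megakaryocyte lineage are of interest, since both genes are active there. The sum of 12 progenitor markers was 32.3 to 40.6 FPKM with PBS and 17.8 to 20.4 FPKM with IL-33, lower in every IL-33 library, as Kit was. Of these 12, 3 rose, 3 fell and 6 did not pass, beside 18.5%, 17.0% and 64.5% of all tested genes. The most abundant, Cd27, is also a lymphocyte gene. The sum of 9 megakaryocyte and platelet markers was 5.33 to 9.12 FPKM with PBS and 9.47 to 23.8 FPKM with IL-33, of which 2 rose and none fell. The part of these cells in the changes of Kit and Gata2 was not tested. T cell and NK cell marker sums were 247 to 433 and 447 to 510 FPKM with PBS and 111 to 119 and 179 to 286 FPKM with IL-33.

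**Figure D5:**
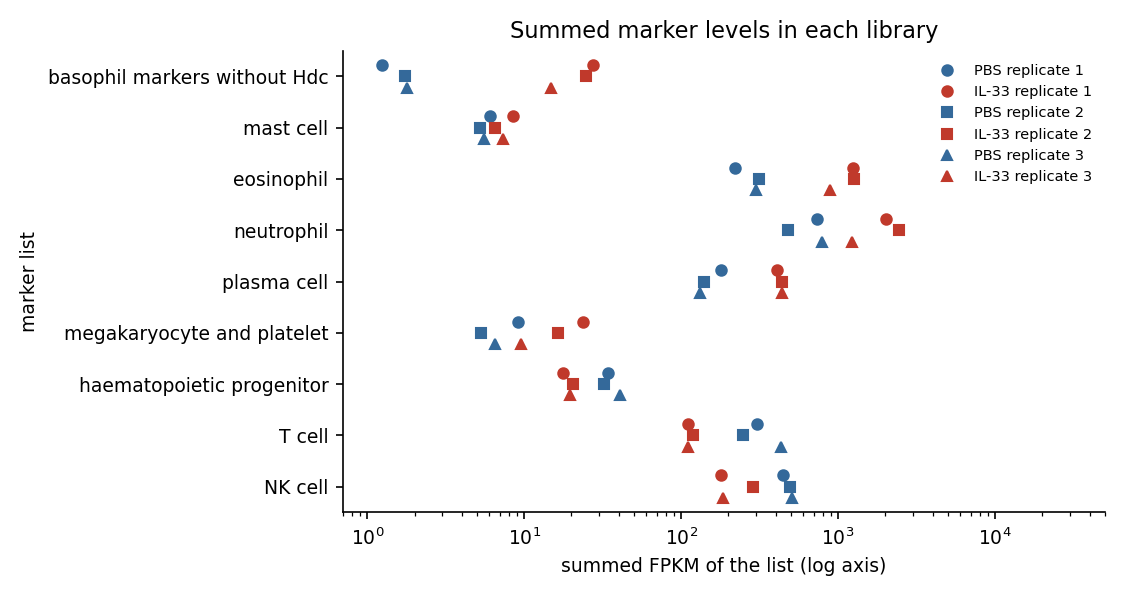
Summed FPKM of marker lists in each library on a log axis, with PBS in blue, IL-33 in red and the replicate number given by the symbol. The basophil markers without Hdc go from 1.24 to 1.80 FPKM with PBS to 14.9 to 27.5 FPKM with IL-33. The mast cell list, drawn without the members Kit, Tpsb2, Cpa3 and Hdc, goes from 5.22 to 6.06 FPKM to 6.48 to 8.48 FPKM. With those members, not drawn, it goes from 48.6 to 52.2 FPKM to 35.9 to 40.7 FPKM.

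By Pearson correlation of log2 values over the 6 libraries, the 5 genes most like Mcpt8 were Dock1, Atg101, Grpel1, Ccdc69 and Tns4 (0.997 to 0.999), among 12077 genes outside the set at 1 FPKM or more in at least 1 library. The libraries share the contrast between the groups, so such a value reflects that contrast too and is given as a description. Their log2 changes lay between 0.39 (Ccdc69) and 0.74 (Tns4), below that of Mcpt8, and those of Ccdc69 and Dock1 did not pass with equal totals (0.06 and 0.20), where Atg101 stood at 0.28 and Grpel1 at 0.21.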

How the data were processed

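RNA-seq of 6 libraries was used as deposited, 1 table per library with an FPKM value for each of 24346 symbols. The submitters' processing notes name mm10 as the build and Cuffnorm 2.2.1, TopHat2 2.0.13, SAMtools 0.1.19 and Bowtie2 2.2.3 as tools, with no role or order. The FPKM values are the authors' own. For the annotation, the strand setting and the scaling between libraries, the answer is not given in the sources used here. Groups came from the sample titles. The 10 members, the gene lists and the tests were chosen with earlier results of these data known.

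Values were analysed as log2(FPKM + 1) with limma 3.58.1 (R 4.3.3), with a variance trend and 1 coefficient for treatment, over all genes above 0 FPKM in at least 1 library (17265). No minimum level was set, because only 6 of the 10 members reached 1 FPKM in at least 3 libraries, 4 of them through the IL-33 group alone. The fit was tested on simulated data. Levels are mean ± SD. Named genes were the members, the 4 smallest adjusted p of each pathway list, all IgE receptor and histamine genes, and the 3 most abundant or undetected genes of the other cell types, of which the mast cell and eosinophil lists are given by gene and the rest mostly by their sums. Itgax, Il18r1, Itga2 and Mrgpra6 were also named and were not followed through the alternatives. Positions came from GENCODE M21. Relative depth was read from the whole steps of low values, on which 88.1% of 1608 genes of at most 0.3 FPKM lay. Alternatives were other pseudocounts, a filter of 1 FPKM, 3 scalings, other variance settings, library weights, a replicate block, a minimum 2-fold change of FPKM + 1 and leaving out each library. Python 3.11.15, pandas 2.3.3, numpy 2.4.6 and scipy 1.17.1 were used. One symbol of the pathway lists (Ighe) was not analysed here. One gene that the rule names is not reported here.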

Additional observations from a re-analysis of the deposited data

How the results depend on the processing

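The calls of Mcpt8, Prss34, Cpa3, Cd200r3, Fcer1a and Kit kept their direction and stayed past the threshold under every one of the 17 alternatives in which they were tested, except the minimum 2-fold change (Fcer1a was not tested with the filter of 1 FPKM). Under that test none of the members passed (0 higher, 0 lower), none of the 111 other pathway genes passed (0 higher, 0 lower), and 56 genes of the table were higher and 3 lower. With 1 FPKM required in 3 libraries, 4 members were higher and the median of the 6 tested was 1.55. The median was 1.86 with a pseudocount of 0.1 and 1.02 with 0.5. With equal totals 1329 genes were higher and 6173 lower, and 23 and 38 of the other pathway genes. With 1 library left out, 1828 to 2666 genes were lower, the fewest without IL-33 replicate 1, and 5 to 7 members were higher.

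Replicate numbers were not taken as pairs, since deviations of same-numbered libraries correlated at 0.02, 0.02 and 0.08, and IL-33 replicate 2 correlated best with another number. With the replicate block 2266 genes were higher and 1751 lower, and 6 members were higher and 1 lower.

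Genes not past the threshold changed sign in places. Hdc was at 0.042 with quantile normalization, 0.10 with cyclic loess, 0.034 with library weights and -0.189 to 0.0855 with 1 library left out. Ccr3 was at -0.32 with equal totals, -0.17 with quantile normalization, -0.18 with cyclic loess, -0.18 with library weights and -0.24 to 0.20 with 1 library left out. Slc18a2 was at -0.10 with equal totals and -0.0576 to 0.0457 with 1 library left out, and Cma1 at 0.034 with cyclic loess and -0.31 to 0.10 with 1 left out. Of the genes past the threshold that were followed through the alternatives, Fcer1g alone changed sign (-0.0773 with cyclic loess). The cause was not tested. Values of Prss34, Fcer1a and Tpsb2 with PBS are limited by depth to 3 or 4 steps in all.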
